A study of Mus musculus with 6 samples.

Results

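The long non-coding RNAs described here are 8 genes of the mouse genome that are abundant enough to be read in embryonic fibroblasts and belong to 2 classes. Malat1 and Neat1 are long RNAs that stay in the nucleus. Gas5, Snhg1, Snhg3, Snhg6, Snhg8 and Snhg12 are spliced RNAs that carry small nucleolar RNAs (snoRNAs) in their introns, here called host RNAs. Members were the rows whose gene symbol equals one of these 8 names, out of 25793 genes in each count table, and all 8 reached a scaled level of 1 CPM (counts per 1000000 counts on genes) in at least 1 library. The RNA came from primary mouse embryonic fibroblasts (MEFs) made from E13.5 embryos of matings of mice heterozygous for Sptbn1 and for SMAD3, grown with 10% fetal bovine serum and sequenced from 1 ug of total RNA. Sptbn1 encodes β2SP, a spectrin of the membrane skeleton, and SMAD3 is a transcription factor activated by TGF-β receptors.

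There was 1 library for each of 6 genotypes: wild type (WT), β2SP+/- (Sptbn1 heterozygous knockout), β2SP-/- (Sptbn1 homozygous knockout), SMAD3+/- (SMAD3 heterozygous knockout), SMAD3-/- (SMAD3 homozygous knockout) and the double heterozygous knockout, which carries 1 mutant allele of each gene. No treatment separated them. How the alleles were made, the strain, and whether a library came from 1 embryo or several are not given in the sources used here. With 1 library per genotype, a difference between libraries has no replicate check, and genotype, embryo and preparation cannot be told apart. All intervals below are 95% intervals for counting error only, and without molecular identifiers the reads need not be independent molecules. A member is called higher or lower when its whole interval lies beyond 1.5-fold.

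Libraries are named by their labels throughout, since the labels were only partly borne out. The Sptbn1 row (older symbol Spnb2) was at 75.5% of WT in the library labelled β2SP+/-, 54.3% in that labelled β2SP-/- and 48.9% in the double heterozygous library, but also at 72.0% in that labelled SMAD3-/-. The Smad3 row went against the labels: it stood at 149% of WT in the library labelled SMAD3+/-, 199% in that labelled SMAD3-/- and 381% in the double heterozygous library. A count over the whole gene does not show whether the deleted part was read. Counts on genes ranged from 6856680 to 31125055 per library. In the libraries labelled WT, β2SP+/-, β2SP-/- and SMAD3+/-, 40.9 to 43.3% of uniquely placed reads fell on genes, against 80.1 and 81.2% in the SMAD3-/- and double heterozygous ones. The first 4 are called the low-assignment libraries below, and the other 2 the high-assignment libraries. The 18S ribosomal RNA row Rn18s lay between 64661 and 87249 CPM in the low-assignment libraries and at 349 and 1529 CPM in the high-assignment ones. All 16 fibroblast markers, among them Col1a1, Vim and Prrx1, were above 1 CPM in every library, and summed to between 22835 and 64932 CPM. Relative to WT, SMAD3-/- had 9 of them called lower and 1, Vim, higher (25.2 and 24.2% of all genes). The double heterozygous library had 8 called higher and 1 lower (21.6 and 19.1%). SMAD3+/- had 3 called lower and 1 higher, and both β2SP libraries had none called. Dcn fell from 1301 CPM in WT to 55.2 in SMAD3-/-, and Lum from 211 to 29.4. Lum rose to 1565 CPM in the double heterozygous library. The 15 macrophage and leukocyte markers summed to between 1569 and 2455 CPM in the low-assignment libraries and to 1853 CPM in the double heterozygous one. Against WT, 2 of these markers were called higher and 8 lower in the double heterozygous library. In the library labelled β2SP+/- 5 were called lower and none higher (1.83% of all genes were called). In the library labelled SMAD3-/- they summed to 69.6 CPM, all 15 were called lower than in WT, and 1 was at 0. The library labelled SMAD3+/- was the only one with Xist above 100 CPM, at 2747 CPM. On the Y-linked rows Ddx3y, Eif2s3y, Kdm5d and Uty it had 4, 3, 1 and 2 reads, against 303 to 4488 in the others. By these rows it came from female cells, and the other libraries held male cells. Sex and label therefore cannot be told apart in comparisons with it, the one with WT included. The part of these differences in the results below was not tested, and in bulk RNA fewer cells of a type and less RNA per cell cannot be told apart.

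Malat1 is retained in nuclear speckles, the bodies that store splicing factors, and is among the most abundant long RNAs of mammalian cells. Neat1 is the scaffold of paraspeckles, and only its long form builds them, while a short form shares its 5′ end and is polyadenylated. Both long RNAs lack a poly(A) tail: RNase P cuts them at a tRNA-like structure, and the new 3′ end folds into a triple helix of U-rich and A-rich stretches. Host RNAs work the other way around: their introns give box C/D and box H/ACA snoRNAs, which guide modification and processing of ribosomal RNA, while the spliced exons are often exported and degraded. Many belong to the 5′ terminal oligopyrimidine (TOP) class, whose transcripts start with C and a run of pyrimidines and whose translation follows growth signals. Gas5, named for growth arrest, is the best known of them.

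The 3′ ends set Malat1 and Neat1 apart from polyadenylated RNA, and are shown for that reason. They are read from the GENCODE M21 transcripts (GRCm38), 5′ to 3′, with the 3 stretches of at least 10 bases that both long forms share in capitals. The first is bases 6608 to 6691 of transcript Malat1-201 and the second is bases 20682 to 20771 of Neat1-201. The last is the end of the short Neat1 transcript (bases 2945 to 3004), with its AATAAA letters in capitals instead.
Malat1 3′ end: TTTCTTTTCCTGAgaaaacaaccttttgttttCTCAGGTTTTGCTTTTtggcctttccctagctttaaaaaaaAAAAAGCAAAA
Neat1 long form 3′ end: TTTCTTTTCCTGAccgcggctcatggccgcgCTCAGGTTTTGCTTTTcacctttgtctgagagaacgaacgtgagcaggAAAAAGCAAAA
Neat1 short form 3′ end: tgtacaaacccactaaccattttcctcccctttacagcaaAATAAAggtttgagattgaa
The shared stretches are the U-rich TTTCTTTTCCTGA and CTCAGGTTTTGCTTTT and the A-rich AAAAAGCAAAA. Searched on the transcript strand of 30216 long non-coding transcripts, the 16 bases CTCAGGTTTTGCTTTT lie in the last 100 bases of 1 of them. The annotated end of Malat1-201 lies past its stretch and so outside that search. AAAAAGCAAAA lies there in 10 transcripts, and AATAAA in 25.3% of them. The count tables hold 1 row for Neat1, so its short and long forms could not be counted apart.

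The starts of the host RNAs are shown because the TOP class is defined there. RefSeq promoters (GRCm38.p6) matched 6 of the 8 members; Neat1 and Snhg6 had no entry. Each line below runs from 40 bases before the annotated start to 30 bases from it, in the direction of transcription, with any run of at least 5 C or T letters that begins with C within 10 bases of the start in capitals. The windows are chr1:161035126-161035195 (plus strand) for the second of the Gas5 starts, chr3:123508307-123508376 (minus) for Snhg8, chr4:132308638-132308707 (plus) for Snhg12, chr4:132353657-132353726 (minus) for Snhg3, chr19:8723447-8723516 (plus) for Snhg1 and chr19:5802643-5802712 (minus) for Malat1.
Gas5, second start: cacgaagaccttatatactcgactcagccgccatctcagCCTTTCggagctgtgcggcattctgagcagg
Snhg8: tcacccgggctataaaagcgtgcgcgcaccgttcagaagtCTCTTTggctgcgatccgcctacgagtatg
Snhg12: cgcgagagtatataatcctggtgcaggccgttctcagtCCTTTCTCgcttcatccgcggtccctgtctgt
Snhg3: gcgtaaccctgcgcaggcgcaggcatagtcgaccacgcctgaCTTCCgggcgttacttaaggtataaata
Snhg1: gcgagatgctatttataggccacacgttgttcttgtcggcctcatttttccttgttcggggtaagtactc
Malat1: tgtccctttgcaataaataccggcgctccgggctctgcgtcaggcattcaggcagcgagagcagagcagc
The run was found at the second Gas5 start, Snhg8, Snhg12 and Snhg3. No such run begins within 10 bases of the other Gas5 start (window chr1:161034561-161034630, not printed), of the Snhg1 start or of the Malat1 start. The same run was found in 30.7% of all 32841 promoters, so it is no mark of these genes alone. On both strands of the 300 base promoters, TATAAA was found for Snhg1, Snhg3 and Snhg8 (13.6% of all promoters) and CACGTG for none of the members (7.15% of all).

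Malat1 fell across the libraries by more than any other member. It was at 38532 CPM in WT, 36898 in the library labelled β2SP+/-, 36111 in β2SP-/-, 30717 in SMAD3+/-, 4473 in SMAD3-/- and 335 in the double heterozygous library. The low-assignment libraries lie within 1.25-fold of each other, and the high-assignment ones stand far below them. In the low-assignment libraries Malat1 had the second highest count of all genes, and its rank was 6 in the library labelled SMAD3-/- and 398 in the double heterozygous one. Against WT, Malat1 was 8.61-fold lower in SMAD3-/- (8.55 to 8.67) and 115-fold lower in the double heterozygous library (113 to 117). The high-assignment libraries also differed from each other, by 13.3-fold (13.1 to 13.6). Their shares of reads on genes were alike, but Rn7sk, the 7SK RNA, was at 4153 CPM in SMAD3-/- and 0.605 in the double heterozygous library. The part of such differences in the Malat1 levels was not tested. The 10530 Malat1 reads of the double heterozygous library leave little counting error, so depth does not limit this value.

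Neat1 did not follow Malat1. Its level was 338 CPM in WT, 279 in β2SP+/-, 306 in β2SP-/-, 334 in SMAD3+/-, 103 in SMAD3-/- and 713 in the double heterozygous library. The low-assignment libraries lie within 1.21-fold, and the high-assignment libraries fall on opposite sides of them. Against WT, Neat1 was 3.27-fold lower in SMAD3-/- (3.10 to 3.44) and 2.11-fold higher in the double heterozygous library (2.04 to 2.18). WT and SMAD3+/- were not told apart by counting error (1.012-fold, 0.97 to 1.06).

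In read counts, the balance of the nuclear RNAs therefore turned over in the double heterozygous library. For each Neat1 read there were 114 Malat1 reads in WT, 132 in β2SP+/-, 118 in β2SP-/-, 92.0 in SMAD3+/-, 43.2 in SMAD3-/- and 0.471 in the double heterozygous library. This ratio is taken within a library and needs no scaling between libraries. Malat1 made up 99.1% of the reads of this pair in WT and 32.0% (31.5 to 32.5) in the double heterozygous library. Per kilobase, the only scale on which genes can be compared, WT held 5518 CPM of Malat1 over the 6983 bases of its longest transcript. For Neat1 it held 16.3 CPM per kilobase over the 20771 bases of the long form, or 113 if all reads came from the 3004 bases of the short form. In the double heterozygous library the Malat1 level was 48.0 CPM per kilobase, which falls between 34.3 and 237 for Neat1 on those lengths. Which of them was higher per kilobase there is therefore not settled.

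**Figure D1:**
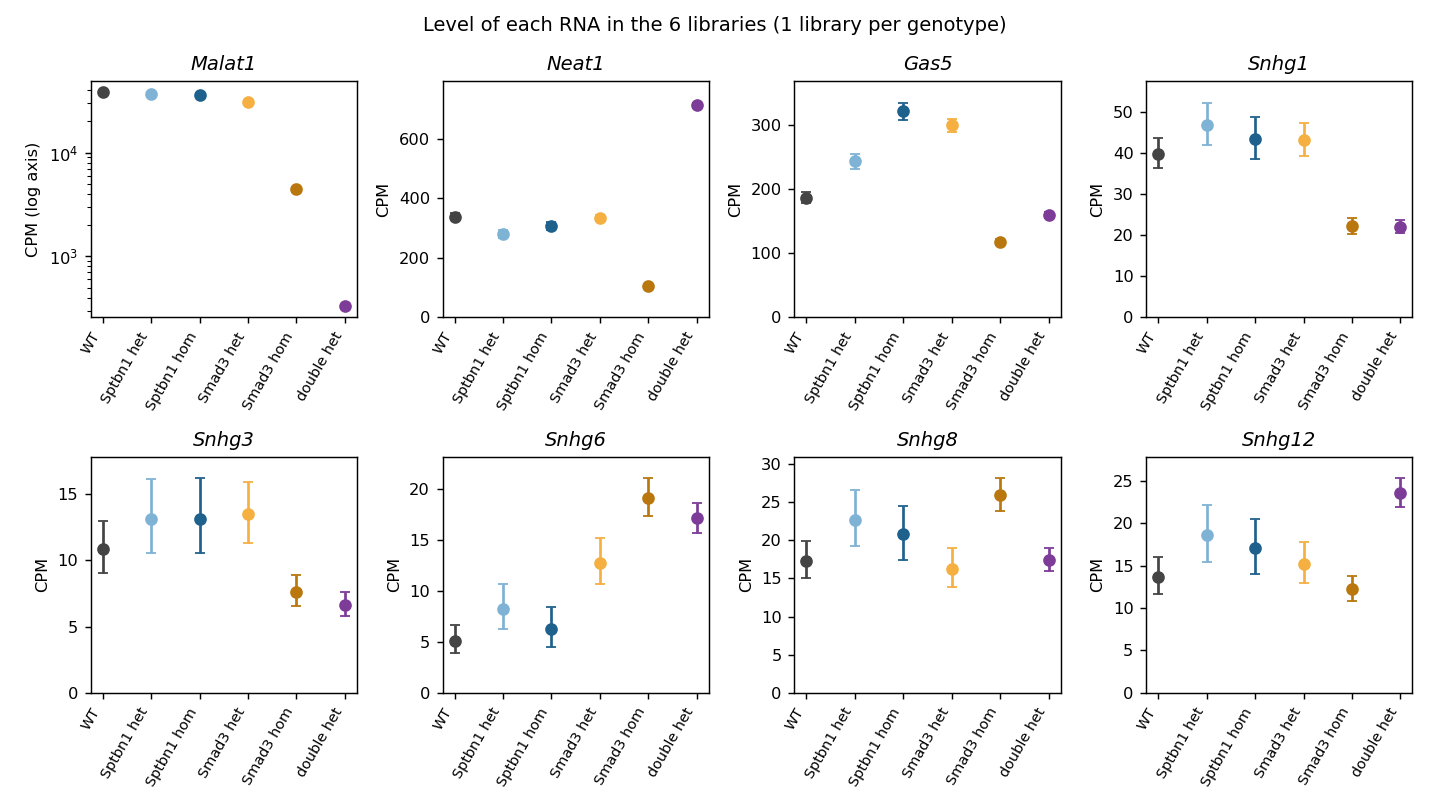
Level of each of the 8 RNAs in each library, in TMM-scaled CPM (y axis, logarithmic for Malat1 and from 0 for the others), with 1 point per library, named by its label on the x axis, and bars for the 95% counting interval. Malat1 drops from 38532 CPM in WT to 335 CPM in the double heterozygous library, where Neat1 is at its highest, 713 CPM, while Snhg6 is highest in the SMAD3-/- library at 19.2 CPM.

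Gas5 carried most of the host RNA reads, 57.5 to 76.1% of them in each library. It was at 187 CPM in WT, 243 in β2SP+/-, 321 in β2SP-/-, 299 in SMAD3+/-, 118 in SMAD3-/- and 160 in the double heterozygous library. All 3 mutant low-assignment libraries lay above WT and both high-assignment libraries below it. Against WT, Gas5 was 1.72-fold higher in β2SP-/- (1.62 to 1.83) and 1.60-fold higher in SMAD3+/- (1.52 to 1.69), and both were called. Both calls ended at a 2-fold threshold and when the intervals were widened by either dispersion between libraries, to a log2 ratio of 0.32 to 1.24 in β2SP-/- and 0.22 to 1.14 in SMAD3+/- with that of the low-assignment libraries. In β2SP+/- the ratio was 1.30-fold higher (1.22 to 1.39), short of the threshold. In SMAD3-/- it was 1.59-fold lower (1.497 to 1.68), also not called, but this call turned with the scaling: the log2 ratio of -0.67 became -0.73 with DESeq2 size factors and -0.85 with the upper quartile, and both were called. Zbtb37, a zinc finger gene that overlaps Gas5 on the opposite strand, was at 14.2 CPM in WT and between 6.37 and 18.2 CPM in the mutant libraries. The counting's strand setting was not given in the sources used here, so reads of the overlap cannot be assigned.

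Snhg1 and Snhg3, like Gas5, were at lower levels in both high-assignment libraries than in WT. Snhg1, host of box C/D snoRNAs, was at 39.8 CPM in WT, 46.8 in β2SP+/-, 43.3 in β2SP-/-, 43.1 in SMAD3+/-, 22.2 in SMAD3-/- and 22.1 in the double heterozygous library. The low-assignment libraries were not ordered beyond counting error from 1 neighbour to the next, nor were the high-assignment ones, and the gap between the sets was wider. Against WT, Snhg1 was 1.80-fold lower in SMAD3-/- (1.58 to 2.04) and 1.80-fold lower in the double heterozygous library (1.60 to 2.03). With total counts as the scale the log2 ratio in SMAD3-/- moved from -0.84 to -0.75 and was no longer called.

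Snhg3, host of the 2 Snora73 snoRNAs, was counted at 10.9 CPM in WT, 13.1 in β2SP+/-, 13.1 in β2SP-/-, 13.47 in SMAD3+/-, 7.64 in SMAD3-/- and 6.66 in the double heterozygous library. The order has the same split as that of Snhg1. With 88 to 209 reads per library the intervals were wide, and the ratio to WT was 1.42-fold lower in SMAD3-/- (1.121 to 1.81) and 1.63-fold lower in the double heterozygous library (1.30 to 2.05), neither called. Against the single heterozygous libraries it was called in the double heterozygous one, 1.97-fold below β2SP+/- (1.52 to 2.53) and 2.02-fold below SMAD3+/- (1.62 to 2.52). With total counts the first of these was lost, at a log2 ratio of -0.94. Rcc1, the chromatin-bound exchange factor of the GTPase Ran, overlaps Snhg3 on the same strand. Its level was 30.8 CPM in WT and 114 CPM in SMAD3-/-, 3.70-fold higher (3.31 to 4.15), where Snhg3 was lower than in WT. Ambiguous reads were 0.0251% of placed reads in SMAD3-/- and 0.363 to 0.827% in the other libraries. The part of the overlap in either level was not tested.

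Snhg6 was the host RNA with the largest range, and it moved the other way. It was at 5.13 CPM in WT, 8.25 in β2SP+/-, 6.28 in β2SP-/-, 12.8 in SMAD3+/-, 19.2 in SMAD3-/- and 17.1 in the double heterozygous library. The 3 libraries labelled with a SMAD3 allele are the 3 highest. Against WT, Snhg6 was 2.49-fold higher in SMAD3+/- (1.82 to 3.46), 3.74-fold higher in SMAD3-/- (2.84 to 5.01) and 3.34-fold higher in the double heterozygous library (2.54 to 4.46). It was the only member called in the same direction in all 3. Within the low-assignment libraries alone, SMAD3+/- was above β2SP+/-, the next in order, by 1.55-fold (1.13 to 2.16), which does not reach the threshold. Its 58 reads in WT set the width of these intervals. Mcmdc2 overlaps Snhg6 on the opposite strand, so reads of that overlap cannot be assigned either.

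Snhg8 and Snhg12 were called in none of the 9 pairs of libraries compared. Snhg8 was at 17.3 CPM in WT, 22.7 in β2SP+/-, 20.8 in β2SP-/-, 16.3 in SMAD3+/-, 25.9 in SMAD3-/- and 17.4 in the double heterozygous library. Sorted by level, no library was told apart from the next by counting error, though SMAD3-/- was 1.59-fold above SMAD3+/- (1.34 to 1.90). The largest ratio to WT was 1.496-fold higher in SMAD3-/- (1.27 to 1.77). Snhg12 was at 13.7 CPM in WT, 18.6 in β2SP+/-, 17.0 in β2SP-/-, 15.2 in SMAD3+/-, 12.2 in SMAD3-/- and 23.5 in the double heterozygous library. It was the only host RNA with its highest level in the double heterozygous library, 1.72-fold above WT (1.44 to 2.05).

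**Figure D2:**
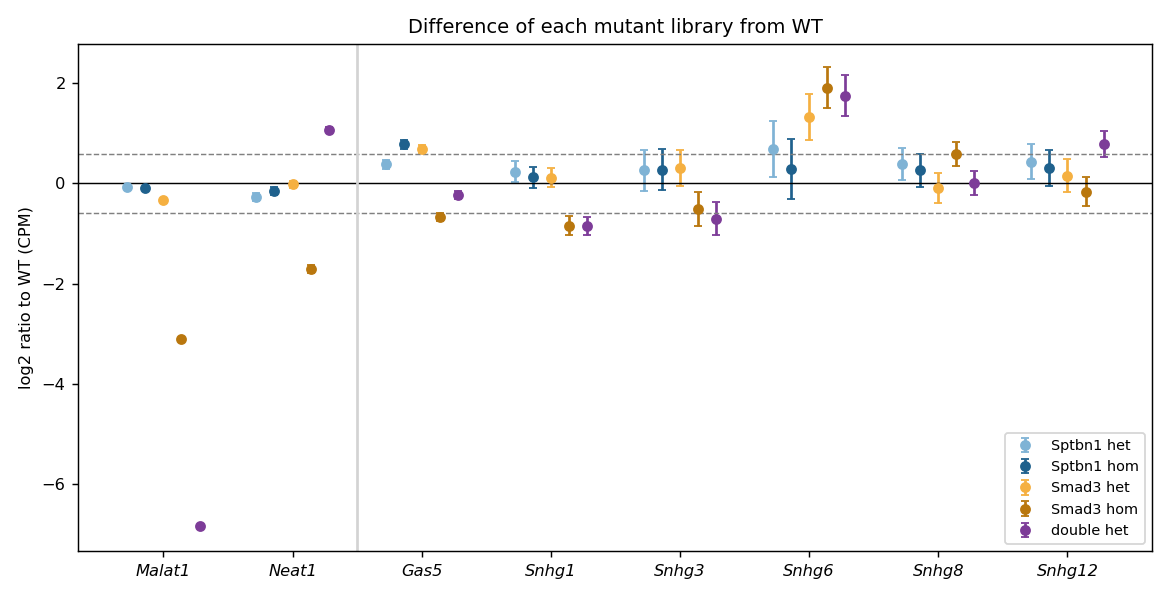
log2 ratio of each mutant library to WT (y axis) for the 8 RNAs (x axis), with points coloured by the library's label and bars for the 95% counting interval; dashed lines mark 1.5-fold in each direction. Malat1 reaches -6.84 in the double heterozygous library and -3.11 in SMAD3-/-, Neat1 is split at 1.08 and -1.71, and Snhg6 lies above the upper line in all 3 libraries with a SMAD3 allele.

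Read against all genes, these calls have different weight. In the library labelled β2SP+/- none of the 8 members was called against WT, where 1.83% of 14810 genes were called in either direction. In β2SP-/- 1 of 8 was called, Gas5, where 1.06% of genes were called and 0.648% were higher. In SMAD3+/- 2 of 8 were called, Gas5 and Snhg6, both higher, where 6.1% of genes were called and 1.64% were higher. In SMAD3-/- 4 of 8 were called, Snhg6 higher and Malat1, Neat1 and Snhg1 lower, where 49.4% of all genes were called. In the double heterozygous library 4 of 8 were called, Neat1 and Snhg6 higher and Malat1 and Snhg1 lower, where 40.7% were called. In these last libraries the share of members called was near that of all genes. With intervals widened by the dispersion of the fit over all 6 libraries, Malat1 in the high-assignment libraries was the only member still called against WT. The Snhg1 calls also ended at a 2-fold threshold and with the dispersion of the low-assignment libraries, and the Snhg6 call in SMAD3+/- at 2-fold. Between upper-quartile and TMM scaling the median log2 ratio of all genes to WT moved from -0.09 to 0.10 in SMAD3-/- and from -0.11 to 0.09 in the double heterozygous library, so smaller differences there hang on the scale.

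Mutant libraries were also compared with each other. Between β2SP-/- and β2SP+/- none of the 8 members was called (1.3% of all genes), with Gas5 1.32-fold higher in β2SP-/- (1.24 to 1.41). Between SMAD3-/- and SMAD3+/- 4 members were lower in SMAD3-/- and none higher, where 44.9% of genes were called and 22.3% were lower. They were Malat1 (6.87-fold, 6.82 to 6.92), Neat1 (3.23-fold, 3.06 to 3.40), Gas5 (2.54-fold, 2.41 to 2.68) and Snhg1 (1.95-fold, 1.71 to 2.22). Against β2SP+/-, the double heterozygous library had 2 members higher, Neat1 and Snhg6, and 3 lower, Malat1, Snhg1 and Snhg3 (39.4% of genes). In this pair the Snhg6 call was lost, and Gas5 was called lower, with DESeq2 size factors and with the upper quartile. Against SMAD3+/- it had Neat1 higher and Malat1, Gas5, Snhg1 and Snhg3 lower (41.5% of genes). Several of these pairs share a library and are not independent of each other.

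Whether the double heterozygous library lay at the sum of both single heterozygous differences was asked for each member as its log2 departure from that sum. Malat1 lay below it by -6.45 (-6.48 to -6.43) and Neat1 above it by 1.37 (1.28 to 1.46). Gas5 lay below by -1.29 (-1.40 to -1.18), Snhg1 by -1.20 (-1.47 to -0.93) and Snhg3 by -1.29 (-1.79 to -0.79). For Gas5 this comes from single heterozygotes above WT and a double heterozygote below it. For Snhg6, at -0.27 (-0.86 to 0.33), Snhg8, at -0.29 (-0.69 to 0.10), and Snhg12, at 0.19 (-0.23 to 0.61), the interval held 0. Of all genes, 35% departed by more than 1.5-fold beyond counting error, 2746 above and 2442 below, beside 5 of the 8 members.

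A fit of all 6 libraries to the number of mutant alleles gave the only test the design allows. Both high-assignment libraries carry mutant Smad3 alleles by label, and the fit had no term for assignment. Its Smad3 results, those of Snhg6 and Malat1 included, therefore cannot be told apart from that difference between libraries. In edgeR's quasi-likelihood test no member passed an adjusted p of 0.05 for either gene, and 0 of 14085 genes did (0% called). In simulated data this test found 7% of genes changed 2-fold per Sptbn1 allele and 8% per Smad3 allele. At 4-fold it found 76 and 75%. The absence of calls therefore says little about changes near 2-fold. At an unadjusted p under 0.05 there were 21 genes for Sptbn1 and 3404 for Smad3, and DESeq2's Wald test called 0 and 2049. Snhg6 had the lowest p of the members, with 0.98 log2 per Smad3 allele (SE 0.27, edgeR adjusted p = 0.161). DESeq2 gave Snhg6 0.91 (adjusted p = 0.0323), the only member it called, where it called 14.5% of all genes and 6.25% were higher. Malat1 had -1.96 log2 per Smad3 allele with an SE of 1.16 (edgeR adjusted p = 0.320), and the SE reflects that SMAD3+/- lay near WT while the double heterozygous library, with the same number of Smad3 alleles, lay 91.6-fold lower than SMAD3+/-. Without the high-assignment libraries Gas5 turned from -0.39 to 0.68 log2 per Smad3 allele (SE 0.11, edgeR adjusted p = 0.0190), and was the only member called, where 2.76% of genes were and 0.812% were higher. That fit has 1 residual degree of freedom. Its Smad3 effect rests on the library labelled SMAD3+/- alone, which also stands apart in Xist and Y-linked reads.

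The make-up of the host RNA pool also differed between libraries. The 6 host RNAs summed to 274 CPM in WT, 353 in β2SP+/-, 422 in β2SP-/-, 400 in SMAD3+/-, 205 in SMAD3-/- and 246 in the double heterozygous library. Gas5 was 68.2% of host reads in WT, 76.1% in β2SP-/-, 74.8% in SMAD3+/- and 57.5% in SMAD3-/-. Snhg6 was 1.88% of them in WT, 9.37% in SMAD3-/- and 6.95% in the double heterozygous library. Snhg8 was at 12.7% in SMAD3-/- against 4.07 to 7.07% elsewhere, and Snhg12 at 9.55% in the double heterozygous library against 3.80 to 5.96% elsewhere. The share of Snhg6 was larger in both high-assignment libraries than in any other. That of Snhg1 was 14.6% in WT, 10.8% in SMAD3-/- and 8.96% in the double heterozygous library, and that of Snhg3 3.98, 3.73 and 2.70%. Per kilobase of the longest transcript of each gene, Gas5 over 665 bases was at 281 CPM in WT. Snhg1 over 709 bases was at 56.1, Snhg8 over 528 bases at 32.8 and Snhg3 over 581 bases at 18.7. Snhg12 over 1538 bases was at 8.92 and Snhg6 over 816 bases at 6.29. These values, and so their order, depend on the transcript chosen.

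**Figure D3:**
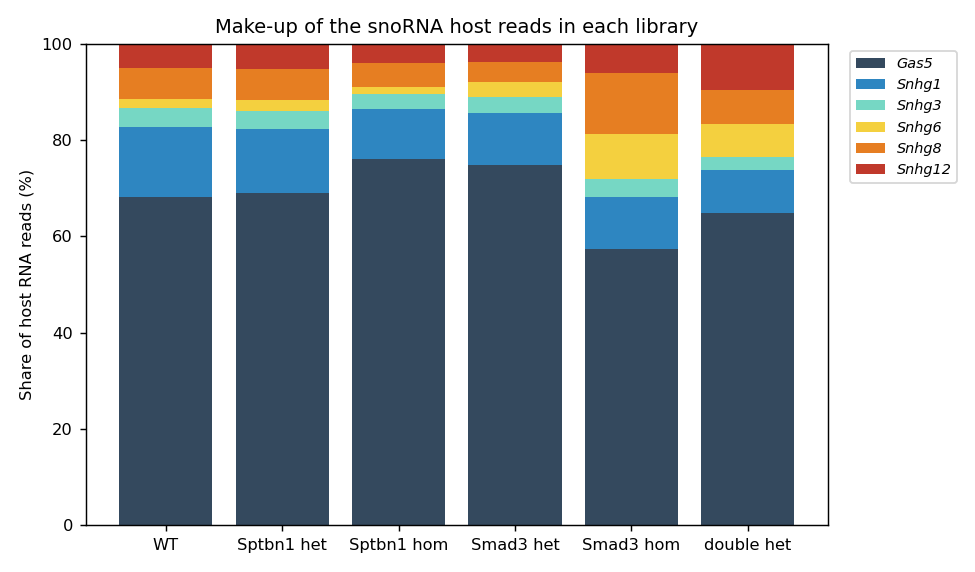
Share of the reads on the 6 host RNAs that fell on each of them (y axis, percent, stacked to 100) in each library (x axis, by label). Gas5 takes 57.5 to 76.1%, and the share of Snhg6 is 9.37% in the SMAD3-/- library against 1.88% in WT.

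The snoRNAs in the introns were set beside their host RNAs. By position in GENCODE and RefSeq, 39 snoRNA names lie inside a host member, with names that differ between the annotations counted apart. Only 8 of them are rows of the count tables, among them 1 of 16 in Gas5 and 1 of 15 in Snhg1. The snoRNAs without a row could not be compared. Snora73a and Snora73b in Snhg3 and Snord22 in Snhg1 had reads to compare. The Snora73 copies are near-identical, so their sequences are printed with the ACA letters near the 3′ end that name the box H/ACA class in capitals. Snord22 follows with the CTGA of box D in capitals. All are from GRCm38, at chr4:132352775-132352979 and chr4:132352322-132352526 (minus strand) and chr19:8725866-8725991 (plus strand).
Snora73a: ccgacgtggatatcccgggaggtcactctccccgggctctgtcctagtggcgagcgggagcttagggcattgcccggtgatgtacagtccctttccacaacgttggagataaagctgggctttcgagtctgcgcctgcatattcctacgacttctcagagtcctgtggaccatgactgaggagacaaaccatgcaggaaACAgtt
Snora73b: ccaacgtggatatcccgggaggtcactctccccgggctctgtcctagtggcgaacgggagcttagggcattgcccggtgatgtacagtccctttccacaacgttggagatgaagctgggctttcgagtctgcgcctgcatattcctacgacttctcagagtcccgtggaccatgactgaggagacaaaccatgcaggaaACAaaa
Snord22: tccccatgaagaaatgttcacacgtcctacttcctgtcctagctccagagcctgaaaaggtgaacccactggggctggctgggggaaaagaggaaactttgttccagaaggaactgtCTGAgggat
The Snora73 copies differ at 7 of 205 bases (96.6% identical), so reads could have been split between them.

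Snora73b had 31, 30, 28, 53, 6425 and 23 reads in WT, β2SP+/-, β2SP-/-, SMAD3+/-, SMAD3-/- and the double heterozygous library. Snora73a had 4, 2, 6, 10, 5032 and 20 in the same order, and Snord22 5, 0, 4, 7, 1425 and 4. The library labelled SMAD3-/- stands alone for all 3, while Snhg3 and Snhg1 were below the level of WT there. Against WT, Snora73b was 104-fold higher there (73.2 to 153), and Snord22 143-fold (61.2 to 441). For each Snhg3 read there were 37.4 Snora73b reads in SMAD3-/- and 0.110 to 0.381 in the other libraries. Snora16a, inside Snhg12, had 34 reads in SMAD3-/-, 1 in the double heterozygous library and 0 in the others, where 3 counts allow up to 0.448 CPM. Snord47 in Gas5, Snord87 in Snhg6, Snora24 in Snhg8 and Snord99 in Snhg12 had 0 reads in every library. Over all 105 snoRNA and related rows the SMAD3-/- library held 808 CPM and the other 5 between 36.0 and 60.1 CPM. Of 8 small structural RNAs compared, 6 were higher and 2 lower in SMAD3-/- than in WT (24.2 and 25.2% of all genes). The 7SK RNA Rn7sk was at 4153 CPM there and between 0.605 and 74.4 CPM elsewhere. The RNase P RNA-like row Rprl3 was at 320 CPM in SMAD3-/- against 0.531 in WT, while Rpph1 was at 0.133 CPM against 11.4 in WT. The part of library preparation in these values was not tested.

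**Figure D4:**
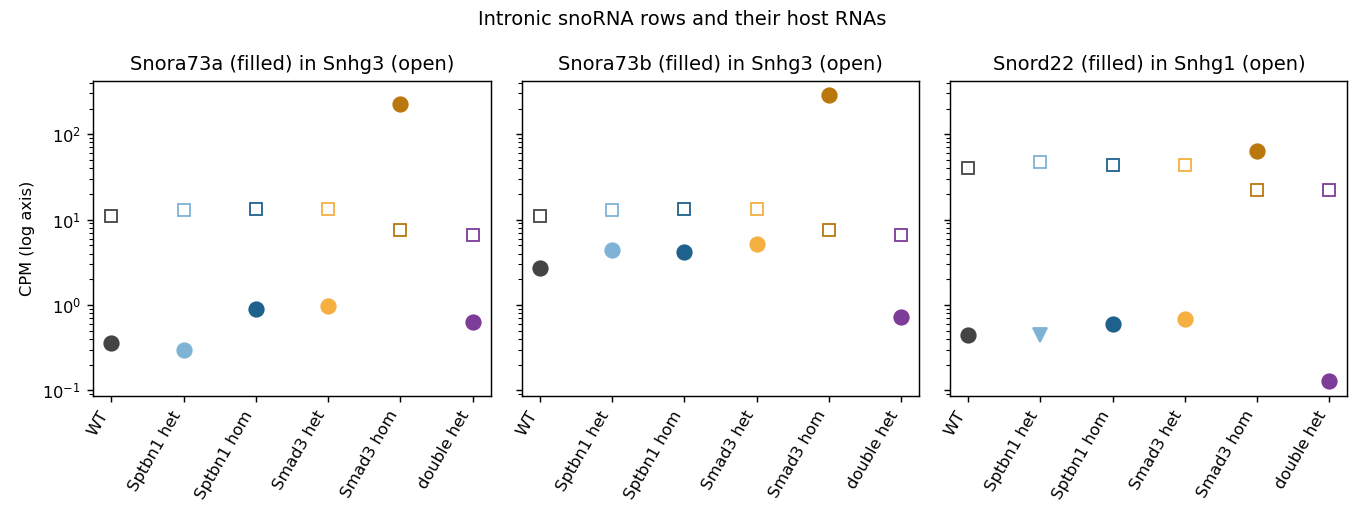
Level in CPM (y axis, logarithmic) of 3 intronic snoRNA rows (filled) and of the host RNA that carries each (open squares) in each library (x axis, by label); the triangle marks a count of 0, drawn at the level of 3 counts. In the SMAD3-/- library Snora73b is at 285 CPM while Snhg3 is at 7.64 CPM, and in the other 5 libraries every snoRNA lies below its host.

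Genes with the most similar course over the 6 libraries were found among 9537 others with a mean of at least 10 CPM, as the root mean square difference of centred log2 levels. For Malat1 they were Lrrtm2, a synaptic adhesion protein gene (difference 0.26), Kcnq1ot1, a nuclear non-coding RNA of an imprinted region (0.68), and Acp1 (0.89). Kcnq1ot1 was at 416 CPM in WT, 15.9 in SMAD3-/- and 4.49 in the double heterozygous library. For Neat1 they were D4Wsu53e (0.04), Ltbp2, an extracellular matrix protein gene (0.08), and Pik3r5 (0.11). D4Wsu53e was at 127 CPM in WT, 39.6 in SMAD3-/- and 262 in the double heterozygous library, so Neat1 shared its split of the high-assignment libraries with other genes.

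Among the host RNAs, Snhg1 and Snhg3 followed each other closely, at a difference of 0.11, which put Snhg3 at rank 48 of 9537 for Snhg1 and Snhg1 at rank 25 for Snhg3. The genes nearest to Snhg1 were Pds5b, Sfrs12 and Rap2c (0.06 each), and those nearest to Snhg3 were Zfp74, Ttc9c and Fat1 (0.06 to 0.07). Gas5 had Uprt (0.18), Rbpms (0.19) and Ncl (0.19), the last coding for nucleolin and itself a host of intronic snoRNAs. Ncl was at 789 CPM in WT, 1022 in SMAD3+/-, 388 in SMAD3-/- and 499 in the double heterozygous library. Snhg6 had Blvrb (0.18), Wdr8 (0.19) and Stx2 (0.21), Snhg8 had Atpif1 (0.06) and Bola2 (0.07), and Snhg12 had Rraga (0.08), Stk40 (0.09) and Dnajb9 (0.09). These are descriptions over 6 libraries and carry no test.

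Other host RNAs did not share a single direction either. Of 13 other snoRNA host RNAs found, 11 passed the level filter. In SMAD3-/- none was higher and 2 were lower than in WT, Snhg11 (5.48 to 0.222 CPM) and Snhg7 (13.54 to 6.09 CPM), with a median log2 ratio of 0.04. In the double heterozygous library 3 were higher and 2 lower (median -0.23), among them 1500012F01Rik, an older symbol of Zfas1, at 52.7 against 27.2 CPM, and Snhg7 at 4.27 CPM. Over all genes the medians were 0.10 and 0.09, and 24.2% were higher and 25.2% lower in SMAD3-/-, against 21.6 and 19.1% in the double heterozygous library. In β2SP-/- the only one called was 2810026P18Rik, an older symbol of Snhg5, at 64.1 against 35.2 CPM.

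Protein-coding genes that host snoRNAs and the proteins that bind snoRNAs were higher in SMAD3-/- more often than lower. Of all genes, 24.2% were higher and 25.2% lower there, and 21.6 and 19.1% in the double heterozygous library. Of 29 protein-coding hosts compared, 19 were higher and 5 lower there (median log2 ratio 1.04), and 12 were higher and 3 lower in the double heterozygous library (0.48). Rpsa, a ribosomal protein gene, was at 339 CPM in SMAD3-/- against 71.4 in WT, and Hspa8, a heat shock protein gene, at 102 and, in the double heterozygous library, 105 against 21.7 CPM. Of 14 snoRNA-binding proteins and their assembly factors, 9 were higher and 2 lower in SMAD3-/- (median 1.05), against 1 higher and 3 lower in the double heterozygous library (-0.30). Nhp2, a core box H/ACA protein, was at 70.0 CPM in SMAD3-/- against 23.1 in WT. Gar1, another, was at 13.9 against 31.1 CPM. Dkc1, the pseudouridine synthase of the same particle, was at 29.2 CPM in the double heterozygous library against 61.5 in WT. Of 20 proliferation genes, 19 were higher in SMAD3-/-, as most genes of both lists were. The exception, Mki67, was lower, at 335 against 718 CPM in WT. In the double heterozygous library 11 of the proliferation genes were lower and none higher, opposite to the protein-coding hosts. Their part was not tested.

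The genes that act on Malat1 and Neat1 were called in both directions, as genes were at large. Of all genes, 24.2% were higher and 25.2% lower in SMAD3-/-, and 21.6 and 19.1% in the double heterozygous library. The counts below are to be read against these shares. Of 12 genes of 3′ end cleavage, mainly RNase P subunits, 7 were higher and 1 lower in SMAD3-/-, and none was higher and 3 were lower in the double heterozygous library (medians 0.84 and -0.21). The lower one in both was Rpph1, the RNA subunit of RNase P, at 11.4 CPM in WT, 0.133 in SMAD3-/- and 0.223 in the double heterozygous library. The RNase P RNA-like row Rprl3, outside this list, was at 0.531 CPM in WT, 320 in SMAD3-/- and 0.0318 in the double heterozygous library. Whether reads were split between these rows was not tested. Elac2, the tRNase Z that trims the tRNA-like piece, was at 40.9 CPM in SMAD3-/- against 11.6 in WT. Of 32 paraspeckle proteins, 12 were higher and 4 lower in SMAD3-/-, and 4 and 3 in the double heterozygous library (medians 0.29 and -0.27). Pspc1, a core paraspeckle protein, was at 25.5 CPM in the double heterozygous library against 53.9 in WT. Of 29 nuclear speckle proteins, 8 were higher and 6 lower in SMAD3-/-, and 4 and 5 in the double heterozygous library (medians 0.05 and -0.18). Srrm2, a scaffold of speckles, was at 215 CPM in SMAD3-/- against 1177 in WT.

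Nonsense-mediated decay is the pathway that removes Gas5 and other spliced host RNAs. Of its 18 factors, 6 were higher and 4 lower in SMAD3-/-, and 5 and 3 in the double heterozygous library (medians -0.12 and -0.13). The shares of all genes were 24.2% higher and 25.2% lower in SMAD3-/-, and 21.6 and 19.1% in the double heterozygous library. Upf1, the central helicase of this decay, was at 37.2 CPM in WT, 123 in SMAD3-/- and 92.6 in the double heterozygous library. Smg1, the kinase that acts on Upf1, was at 411, 207 and 191 CPM. Gas5 was below WT in both, though not called in either, while Snhg6 was called higher in both. The part of these factors in the host RNA levels was not tested. Of 7 growth arrest-specific genes, 5 were lower and 1 higher in SMAD3-/- and 4 higher and 1 lower in the double heterozygous library. Gas1 was at 372 CPM there against 103 in WT. Among 20 other long non-coding RNAs compared, 8 were lower in each high-assignment library and 3 and 4 were higher, with H19 at 1120 CPM in WT, 5663 in SMAD3-/- and 4220 in the double heterozygous library.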

How the data were processed

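The deposited values are raw counts of reads per gene, 1 table for each library. Tools named in the submitters' processing notes are TopHat2 2.0.10, HTSeq, Trimmomatic, FastQC and DESeq2, with build mm9; their roles, strand setting and annotation are not given in the sources used here. The 5 closing summary lines of each table were left out. Counts were scaled with TMM (edgeR 4.0.16, R 4.3.3) to CPM. For 9 pairs of libraries, ratios and exact Clopper-Pearson intervals (scipy 1.17.1) were computed for the 14810 genes that reached 1 CPM anywhere. The departure added 0.5 counts. The allele-dose fit used edgeR's robust quasi-likelihood test with Benjamini-Hochberg adjustment over 14085 genes and 3 residual degrees of freedom; DESeq2 1.42.0 was an alternative. Both steps were tested on simulated data. A count of 0 was bounded by 3 counts. Lengths and transcript ends are from GENCODE M21 (GRCm38), and promoters from RefSeq. Except for the short form of Neat1, lengths are those of the longest transcript of each gene, with retained-intron transcripts left out. No coordinate was moved between builds. Members and lists were chosen with earlier results of these data known. Genes named beside the members are the 3 nearest in course, and up to 2 called genes per list, direction and mutant. Some genes that this rule names are not reported here. Lists of epithelial, endothelial and neural markers summed to between 6.72 and 69.5, 12.5 and 17.3, and 90.9 and 526 CPM.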

Additional observations from a re-analysis of the deposited data

Results flagged for a closer look

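For 3 members, 1 mutant allele went with opposite differences on the 2 backgrounds, with both counting intervals off 1-fold. With 1 library per genotype the difference between backgrounds was not tested over replicates; it is the departure of the double heterozygous library given above, with its counting interval. For 1 mutant Sptbn1 allele, Neat1 had a log2 ratio of -0.28 in β2SP+/- against WT and of 1.09 in the double heterozygous library against SMAD3+/-. Gas5 had 0.38 and -0.91 in the same comparisons, and Snhg1 had 0.23 and -0.97. For 1 mutant Smad3 allele, Gas5 had 0.68 in SMAD3+/- against WT and -0.61 in the double heterozygous library against β2SP+/-. Snhg3 had opposite signs too, 0.27 and -1.02 for Sptbn1 and 0.31 and -0.98 for Smad3, as did Snhg1 for Smad3, 0.12 and -1.09, but there the interval of the first ratio held 1-fold. In the first 4 cases the second ratio sets a high-assignment library against a low-assignment one, and the first sets low-assignment libraries against each other.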

How the results depend on the processing

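Over 72 ratios of members in 9 pairs, DESeq2 size factors changed 3 calls, total counts 2 and the upper quartile 4. Beyond those given with Gas5, Snhg1 and Snhg3, these were Gas5 in the double heterozygous library against β2SP+/- (called at -0.70 with DESeq2 size factors and -0.83 with the upper quartile), Snhg6 in that pair (lost at 0.97 and 0.83) and Snhg3 in SMAD3-/- against SMAD3+/- (called at -1.01 with the upper quartile). Scaling the low-assignment libraries alone changed none of 32. In the order β2SP+/-, β2SP-/-, SMAD3+/-, SMAD3-/- and double heterozygous against WT, β2SP-/- against β2SP+/-, SMAD3-/- against SMAD3+/-, and double heterozygous against β2SP+/- and SMAD3+/-, a 2-fold threshold called 97, 47, 434, 4852, 3473, 63, 4202, 3398 and 3613 genes. Intervals that also hold the dispersion of the fit to allele number called 21, 12, 97, 1891, 1076, 13, 1599, 1153 and 1112. Members called fell to 0 in β2SP-/- and 0 in SMAD3+/- under both, and to 2 in each of the last 2 pairs at 2-fold. With the widened intervals 1 member, Malat1, was called in each of the 5 pairs that hold a high-assignment library. With the dispersion of the low-assignment libraries (coefficient of variation 0.112 against 0.467), chosen after seeing the data, 153, 97 and 106 genes were called in β2SP+/- and β2SP-/- against WT and between them, with 0 members in β2SP-/-, 1 in SMAD3+/-, and 3 and 2 in the last 2 pairs. In the allele-dose fit DESeq2 called 2049 genes and 1 member for Smad3; without the high-assignment libraries 1 gene was called for Sptbn1, and 381 genes with 1 member, Gas5 at 0.68, for Smad3. Leaving out each library in turn, edgeR called 0 genes, with 4 to 304 at an unadjusted p under 0.05 for Sptbn1 and 923 to 4448 for Smad3. Dropping the filter on low counts moved no count of called genes by over 1.5 times, while genes at an unadjusted p under 0.05 for Sptbn1 went from 21 to 58. The causes were not tested. The 42 to 139 reads of Snhg3 and Snhg6 in the low-assignment libraries limit what depth can show. No paired analysis was possible because each genotype has 1 library.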
